A study of Mus musculus with 6 samples.

Results

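The 47 genes described here encode subunits of the proteasome, its activators and inhibitor, and the factors that assemble it. They were taken by name from the deposited table, as every gene whose symbol begins with Psm, a letter from a to g and a digit, with the immunoproteasome genes Psmb8 and Psmb9 left out. All 47 of them were among the 16640 genes that could be tested, of 17987 genes in the table. One of the 47, Psmc3ip, carries such a name but encodes a partner of the meiotic recombinases and no proteasome part, and its values are kept apart in the text.

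The proteasome degrades proteins that carry ubiquitin chains. Its 20S core is a barrel of alpha rings, which form the gate, and beta rings, which hold the proteolytic sites. The 19S cap recognises the chain, removes it, and unfolds and feeds the substrate into the core by means of a ring of ATPases. Deubiquitinases such as Usp24 act upstream of it by taking ubiquitin off substrates. The comparison therefore asks whether RNA of the degradation machinery differed between tumors with active and inactive Usp24.

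Lung tumor tissue of 6 mice was sequenced, 1 library each. Usp24 was WT in 3 of the animals, M1354, M1364 and M1370, and carried C1695A in the other 3, M134, M145 and M164. These are called WT mice and mutant mice from here on. Both groups carried Egfr L858R under a tetracycline operator and the Scgb1a1-rtTA driver, which acts in club and other secretory cells of the lung, and both received 10 weeks of doxycycline at 0.5 g/liter. In the C1695A mice the catalytic cysteine of Usp24 was replaced by alanine through CRISPR/Cas9, so the gene is mutated and not deleted, although the sample titles call this group KO. The growth text of the labels describes the triple transgenic cross for all 6 samples alike, and the genotype was taken from the genotype label and the title. Age and sex were not given. The specimens were whole tissue, in which fewer cells of a type and less RNA per cell cannot be told apart.

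The libraries held 7167000 to 14650273 reads on genes. Alveolar type 2 markers were abundant: the 9 markers summed to 533055 to 604301 normalized counts (reads divided by 1 size factor per library) in WT mice and to 464783 and 478871 in mice M134 and M145, but to 167435 in mouse M164, and none of the 9 was at 0. Mouse M164 also had 17.2% of its reads on mitochondrial transcripts (1.74 to 3.10% in the others), a macrophage marker sum of 4106 (21476 to 40145 in the others, 6 of 6 markers in the table) and a fat cell marker sum of 180820 (510.4 to 10878 in the others, 5 of 6 markers in the table). Adipoq, which defines fat cells, was at or near 0 in all mice but M145 and M164. The heart muscle sum (7 of 8 markers in the table) was 155.1 to 266.3 in WT mice and 951.8, 510.5 and 5821 in mice M134, M145 and M164. The B cell sum (7 of 7 markers) was 224.0 to 297.1 in the WT mice and M134, and 9392 and 3582 in mice M145 and M164. The Y-linked genes, 3 of 4 in the table, were at 0 in mice M1364 and M1370 and summed to 3259 to 3554 in the other 4. Every mutant mouse but only M1354 of the WT mice thus had Y-linked RNA. Sex, as read from these genes, was not balanced between the genotypes. Usp24 itself had 1194, 895.3 and 1225 normalized counts in WT mice and 886.9, 1054 and 1125 in mutant mice (log2 fold change -0.11, SE 0.19), which does not check a point mutation.

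No proteasome gene passed the threshold between the genotypes. The 47 genes divided almost evenly, 25 with a positive and 22 with a negative log2 fold change, and the median was 0.0039, against -0.017 over all genes tested, of which 48.3% were positive. That split depends on the scaling. Positive members numbered 30 of 47 (63.8%) with TMM and edgeR, against 52.1% and 52.7% of all genes. They numbered 31 (66.0%) with upper quartile scaling and with quantile normalization, against 56.1% and 46.0% of all genes. Scaling that leaves out mitochondrial transcripts gave 35 of 47 (74.5%, against 60.2% of all genes). With the Y-linked genes as a covariate they numbered 20 (42.55%, against 48.3%). Log2 fold changes are the mean of log2(normalized count + 1) in mutant mice minus that in WT mice, with the SE and 95% interval of limma-trend and 3 mice per group, and an adjusted p (Benjamini-Hochberg) under 0.05 was the threshold. It was met by 0 of 47 genes, where 0% of all genes tested met it, and the lowest adjusted p of a member was 0.738. At an unadjusted limma p under 0.05 there was 1 member, Psme2b, against 5.54% of all genes, and it was higher in mutant mice (2.61% of all genes were higher and 2.93% lower). Tests on whole reads recovered from the table, a recovery less certain for mouse M145, gave 0 members by edgeR, with 0 at an unadjusted p under 0.05 (6.88% of all genes), and 0 members by DESeq2, with 1 at an unadjusted p under 0.05 (8.25%). DESeq2 called 0.247% of the genes to which it gave an adjusted p.

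The intervals show how precisely each difference was estimated by the main test and its scaling. The 95% interval of the fold change lay within 1 log2 unit of 0, that is within 2-fold, for 41 of 47 members, against 49.9% of all genes tested. It lay within 1.5-fold for 28 of 47, against 13.2%. The width of an interval in limma-trend also depends on the level of the gene. Shares over genes of like level were not taken. The members whose interval reached beyond 2-fold were Psma8, Psmb10, Psmc3ip, Psme2b, Psmg3 and Psmg4. The residual SD between mice of a group had a median of 0.19 log2 units over the 47 members, 0.38 over all genes tested and 0.29 over the 11089 genes with at least 50 normalized counts in every library. These medians describe the lists and were not tested against each other.

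**Figure D1:**
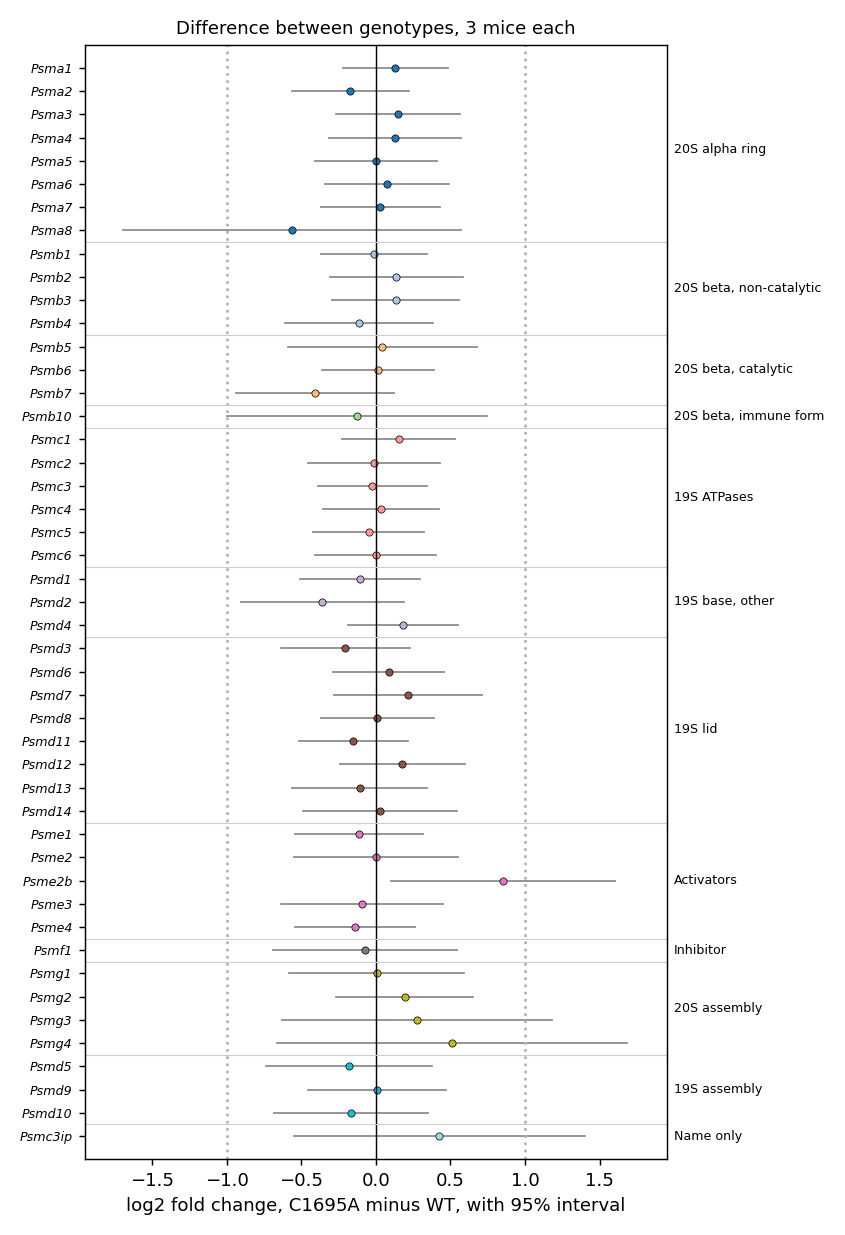
Log2 fold change of each of the 47 genes, Usp24 C1695A minus Usp24 WT, on the x axis, with points for the estimate and lines for the 95% interval of limma-trend, 3 mice per genotype; genes are grouped by role and dotted lines mark 2-fold. Every interval but that of Psme2b spans 0, and 41 of 47 stay between the dotted lines.

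The groups of mice did not overlap in 4 of 47 members, where 11.1% of all genes tested did not. Psma1, Psmd4 and Psme2b were higher in every Usp24 C1695A mouse (5.07% of all genes) and Psma8 was lower in every one (6.03%). Psma1 falls outside the rule for named genes and was chosen after its values were seen.

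The alpha ring of the 20S core forms the gate through which substrates enter. Its 8 genes had log2 fold changes from -0.56 to 0.15 with a median of 0.053. Psma1 was at 1439, 1513 and 1377 normalized counts in mice M1354, M1364 and M1370 (WT) and at 1534, 1560 and 1645 in mice M134, M145 and M164 (mutant), the order kept for every gene that follows. The highest WT mouse lay just under the lowest mutant mouse, and the log2 fold change was 0.13 (SE 0.15, limma adjusted p = 0.836). Psma2 was at 1649, 1582 and 1537 in WT mice and at 1497, 1557 and 1200 in mutant mice. Only mouse M164 lay clearly below the rest, and the log2 fold change was -0.17 (SE 0.17). Psma8, the alpha subunit of the testis form of the core, was at 11.4, 13.0 and 12.2 in WT mice and at 7.10, 8.90 and 7.92 in mutant mice. These values rest on 11, 9, 13, 7, 9 and 4 reads. The log2 fold change of -0.56 had an interval from -1.69 to 0.57 (limma adjusted p = 0.785), which holds differences of either sign.

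The structural beta subunits differed as little, with log2 fold changes from -0.12 to 0.14 for Psmb1, Psmb2, Psmb3 and Psmb4. Psmb3, the one with the lowest p, was at 571.3, 614.6 and 507.6 normalized counts in WT mice and at 715.6, 599.5 and 546.4 in mutant mice (log2 fold change 0.13, SE 0.19). Mouse M134 was above all others and the groups overlapped.

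The other beta subunits carry the proteolytic sites: Psmb5 the chymotrypsin-like, Psmb6 the caspase-like and Psmb7 the trypsin-like activity. Psmb6 was the steadiest of the 47 genes, at 535.0, 528.3 and 501.0 normalized counts in WT mice and at 532.2, 505.5 and 542.5 in mutant mice. The highest mouse exceeded the lowest 1.08 times, and the interval of the log2 fold change ran from -0.36 to 0.39. Psmb5 was at 190.1, 238.9 and 159.8 in WT mice and at 221.0, 245.3 and 146.5 in mutant mice (log2 fold change 0.043, SE 0.28). Both groups covered nearly the same range.
Psmb7 was at 369.8, 231.7 and 333.7 normalized counts in WT mice and at 233.1, 234.5 and 223.7 in mutant mice, with means of 311.8 ± 71.6 and 230.4 ± 5.85 (SD, n = 3). The 3 mutant mice lay close together, WT mice M1354 and M1370 lay above them, and WT mouse M1364 lay within them. The log2 fold change was -0.41 (SE 0.23, 95% interval -0.94 to 0.12, limma adjusted p = 0.738). Without mouse M1364 the unadjusted limma p of Psmb7 was under 0.05, as was that of Psmd2, and no adjusted p was. With array weights and all mice kept, both genes were also under 0.05 unadjusted. Their adjusted limma p was then 0.0937 for Psmb7 and 0.0964 for Psmd2.

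Psmb10 replaces Psmb7 in the immunoproteasome, the form that immune cells and interferon-exposed cells make. It was at 104.9, 194.3 and 89.3 normalized counts in WT mice and at 119.6, 150.4 and 77.2 in mutant mice (log2 fold change -0.13, SE 0.38, upper end of the 95% interval 0.74). The highest value was that of WT mouse M1364 and the lowest that of mutant mouse M164, and the log2 fold change was positive without either, at 0.20 and 0.13. The log2 ratio of Psmb10 to Psmb7 within a library, which does not depend on scaling, was -1.81, -0.25 and -1.89 in WT mice and -0.96, -0.64 and -1.52 in mutant mice. The means of -1.32 ± 0.92 and -1.04 ± 0.45 (SD, n = 3) did not differ beyond the spread (two-sided exact permutation p = 0.8, where 3 against 3 cannot go below 0.1). Of the other immune subunits, Psmb8 was at 325.1, 331.1 and 267.0 in WT mice and at 306.1, 484.8 and 306.9 in mutant mice. Psmb9 was at 147.5, 148.3 and 91.2 in WT mice and at 123.7, 263.2 and 166.3 in mutant mice. Both were highest in mouse M145, which also had the highest B cell marker sum and a T cell marker sum (7 of 7 markers in the table) of 1533 against 141.3 to 441.5 in the other mice. The part of these cells in the values was not tested.

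**Figure D2:**
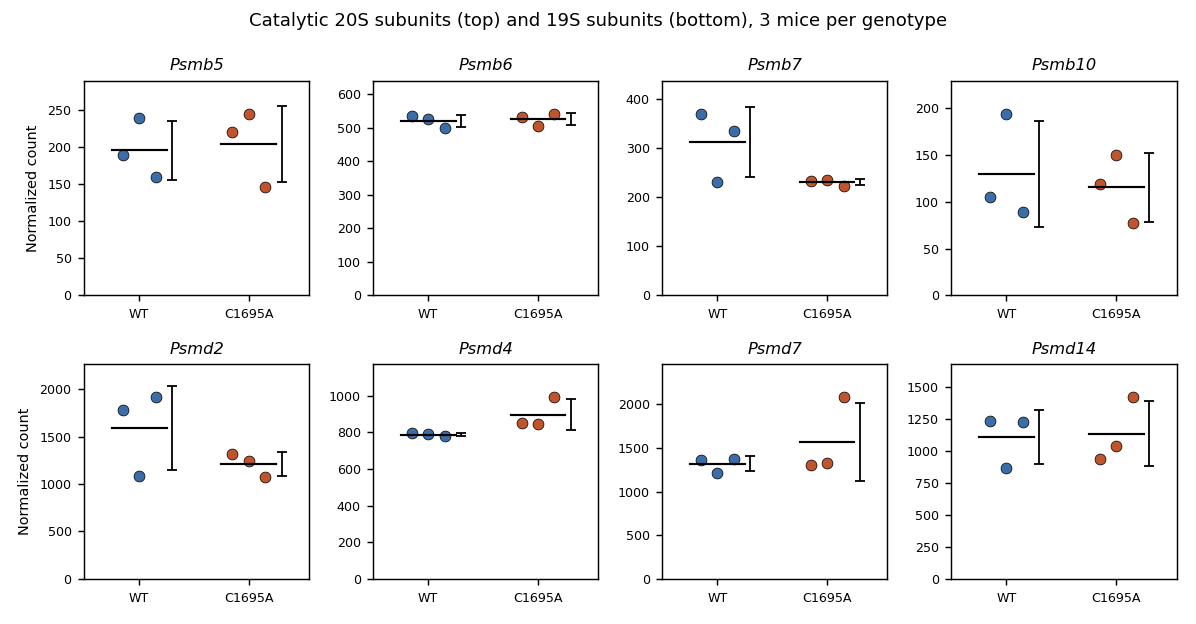
Normalized counts (y axis, from 0) of the catalytic subunits Psmb5, Psmb6, Psmb7 and Psmb10 and of the 19S subunits Psmd2, Psmd4, Psmd7 and Psmd14 in each mouse (points), with the group mean (line) and SD (bar, n = 3). Psmb6 stays between 501.0 and 542.5, while Psmb7 and Psmd2 are high in 2 of 3 Usp24 WT mice.

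In the 19S cap, the 6 ATPases that unfold substrates had log2 fold changes from -0.049 to 0.15 with a median of -0.0071. This was the tightest of the groups with more than 1 gene, with a median residual SD of 0.12 log2 units. Psmc1 was at 2455, 2539 and 2233 normalized counts in WT mice and at 2819, 2417 and 2809 in mutant mice (log2 fold change 0.15, SE 0.17). Mice M134 and M164 were above the WT range and mouse M145 was within it.

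Of the other subunits of the 19S base, Psmd2 is a large scaffold that resembles Psmd1, and Psmd4 is a receptor for ubiquitin chains. Psmd2 was at 1774, 1088 and 1915 normalized counts in WT mice and at 1319, 1239 and 1071 in mutant mice. WT mice M1354 and M1370 stood above all others, WT mouse M1364 was among the mutant mice, and the log2 fold change was -0.36 (SE 0.24, 95% interval -0.91 to 0.19). Psmd4 was at 793.6, 788.8 and 781.2 in WT mice and at 851.5, 846.8 and 991.9 in mutant mice, with means of 787.9 ± 6.27 and 896.7 ± 82.5 (SD, n = 3). The groups did not overlap, mutant mice were 13.8% higher on average, and the log2 fold change of 0.18 (SE 0.16, 95% interval -0.19 to 0.55, limma adjusted p = 0.785) did not pass.

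The 8 lid subunits had log2 fold changes from -0.21 to 0.22. Psmd14, the metalloprotease that cuts the ubiquitin chain off a substrate as it is degraded, was at 1228, 865.1 and 1225 normalized counts in WT mice and at 937.6, 1039 and 1418 in mutant mice (log2 fold change 0.029, SE 0.23). Its inactive partner Psmd7 was at 1365, 1216 and 1377 in WT mice and at 1298, 1328 and 2081 in mutant mice (log2 fold change 0.22, SE 0.22). Both were highest in mouse M164. Without that mouse the log2 fold change of Psmd7 was -0.0048 and that of Psmd14 was -0.15. Psmd3 was at 453.9, 362.7 and 430.5 in WT mice and at 387.2, 365.0 and 326.7 in mutant mice (log2 fold change -0.21, SE 0.19), again with WT mouse M1364 within the mutant range.

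Activators bind the ends of the 20S core in place of the 19S cap. Psme1 and Psme2 form the interferon-inducible ring known as PA28 alpha and beta, Psme3 forms the nuclear PA28 gamma, and Psme4 is the single-chain activator PA200. Psme1 was at 1923, 1775 and 1570 normalized counts in WT mice and at 1748, 1814 and 1336 in mutant mice (log2 fold change -0.11, SE 0.19). Psme3 was at 1229, 731.2 and 1250 in WT mice and at 866.7, 1051 and 1016 in mutant mice (log2 fold change -0.093, SE 0.24). The log2 ratio of Psme1 to Psme3 was 0.65, 1.28 and 0.33 in WT mice and 1.01, 0.79 and 0.40 in mutant mice, and did not differ beyond the spread (difference -0.019, two-sided exact permutation p = 1). Psme4 was at 1918, 1654 and 2179 in WT mice and at 1590, 1740 and 1857 in mutant mice (log2 fold change -0.14, SE 0.18). Psmf1, the PI31 protein that inhibits the core in vitro, was at 375.0, 237.5 and 358.2 in WT mice and at 402.4, 258.2 and 263.3 in mutant mice (log2 fold change -0.074, SE 0.27). In all of them the groups overlapped.

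Psme2b had the lowest limma p of the members. It was the only 1 of 47 under 0.05 unadjusted, where 5.54% of all genes tested were. It is a single-exon copy of Psme2, on the minus strand of chromosome 11 (GRCm38, chr11:48945354-48946190), whereas Psme2 has 11 exons in its principal transcript on the minus strand of chromosome 14 (chr14:55587441-55591113). The coding sequences were both 720 bases long and identical at 715 of them (99.3%). Within the coding sequence, only the 5 differing positions tell reads of the pair apart. The stretch of 90 bases with the most differences, bases 454 to 543 from the start codon, holds 3 of these positions. It is shown with those 3 bases in capitals:
Psme2: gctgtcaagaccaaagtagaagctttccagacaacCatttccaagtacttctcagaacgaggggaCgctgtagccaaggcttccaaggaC
Psme2b: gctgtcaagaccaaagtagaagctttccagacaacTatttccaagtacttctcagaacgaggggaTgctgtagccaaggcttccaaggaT
Of the windows of 1 read length (150 bases) in the transcripts of GENCODE M21, 32.5% of Psme2 and 38.4% of Psme2b occurred in the other gene. How the authors' counter treated such reads is not given in the sources used here, so the split of counts between the pair is uncertain.

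Psme2b was at 172.4, 345.5 and 141.0 normalized counts in WT mice and at 346.7, 403.6 and 354.4 in mutant mice. WT mice M1354 and M1370 were at about the same low level, and WT mouse M1364 was next to the mutant mice, just under the lowest of them. The log2 fold change was 0.85 (SE 0.33, 95% interval from 0.10 to 1.60), with an unadjusted limma p of 0.031 and an adjusted p of 0.738. The unadjusted p was 0.0505 by edgeR and 0.037 by DESeq2, with adjusted p of 0.696 and 0.517. Psme2 itself was at 881.9, 975.9 and 791.5 in WT mice and at 919.4, 1166 and 633.6 in mutant mice (log2 fold change -0.0012, SE 0.24). Summed, as an alternative chosen after seeing the data, the pair was at 1054, 1321 and 932.5 in WT mice and at 1266, 1570 and 988.0 in mutant mice (log2 fold change 0.20, SE 0.22, limma adjusted p = 0.831), and the groups overlapped. The share of Psme2b in the pair was 16.4, 26.1 and 15.1% in WT mice and 27.4, 25.7 and 35.9% in mutant mice.

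**Figure D3:**
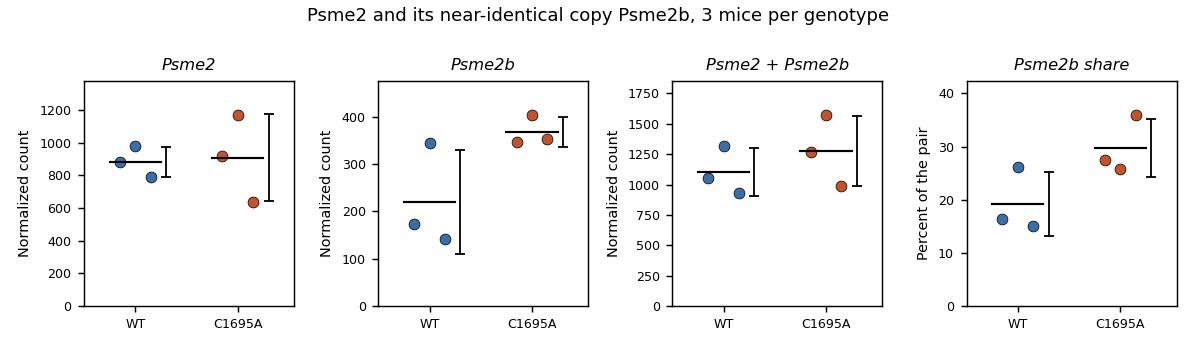
Normalized counts of Psme2, Psme2b and their sum, and the percentage of the sum that is Psme2b (y axes, from 0), in each mouse (points) with the group mean (line) and SD (bar, n = 3). Psme2b is at 141.0 and 172.4 in 2 Usp24 WT mice and at 345.5 or more in the other 4, while Psme2 and the sum overlap between the genotypes.

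A further 9 members shared windows of 150 bases with another annotated gene, from 2.03% of the windows of Psmd2 to 19.1% of those of Psma3. The gene with which each shared most windows was in every case one with only a provisional name. Their counts are uncertain to that extent.

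Assembly factors hold early intermediates of the core and of the base together. Psmg1 to Psmg4, the chaperones of the alpha ring, had log2 fold changes from 0.0039 to 0.51. All 4 were positive, 3 of 4 under quantile normalization and without mouse M164, M1354 or M1370. Psmg4, the one with the lowest p, was at 22.9, 27.3 and 10.3 normalized counts in WT mice and at 25.3, 19.8 and 39.6 in mutant mice, from 11 to 25 reads a library (log2 fold change 0.51, SE 0.51, 95% interval -0.66 to 1.69). The groups overlapped, with the lowest value in WT mouse M1370 and the highest in mutant mouse M164. Of the base chaperones Psmd5, Psmd9 and Psmd10, Psmd5 was at 816.5, 508.1 and 816.9 in WT mice and at 690.3, 672.7 and 502.9 in mutant mice (log2 fold change -0.18, SE 0.24), and Psmd9 had a log2 fold change of 0.0069 (SE 0.20). Psmc3ip, which is no proteasome gene, was at 19.7, 18.7 and 32.9 in WT mice and at 32.4, 23.7 and 39.6 in mutant mice (log2 fold change 0.43, SE 0.43).

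The log2 fold change was smaller than the residual SD between mice of a genotype in 35 of 47 members. The highest mouse exceeded the lowest by less than 1.5 times in 30 of 47 members and by 2 times or more in 5. These counts describe the list only, since the same shares were not taken over all genes. Mouse M164 was the highest of the 6 in 14 members and the lowest in 14. WT mice M1364 and M1370 were each the highest in 7 and the lowest in 13. Mouse M1354 was the highest in 10 and the lowest in 0, mouse M134 in 6 and 3, and mouse M145 in 3 and 4. Members that peaked in mouse M164 include Psmd7, Psmd12, Psmd14 and Psmb2, and members lowest in it include Psmb4, Psmb5, Psmb10 and Psme2. Mouse M164 is the one with the low alveolar type 2 and macrophage sums, the high mitochondrial share and the fewest reads (7167000). The part of these in the values was not tested. WT mouse M1364 alone lay in the range of the mutant mice, with the other WT mice beyond it on the same side, in 6 members (Psmb7, Psmd2, Psmd3, Psmd5, Psmd10 and Psme4), against 3 for M1354 and 2 for M1370.

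**Figure D4:**
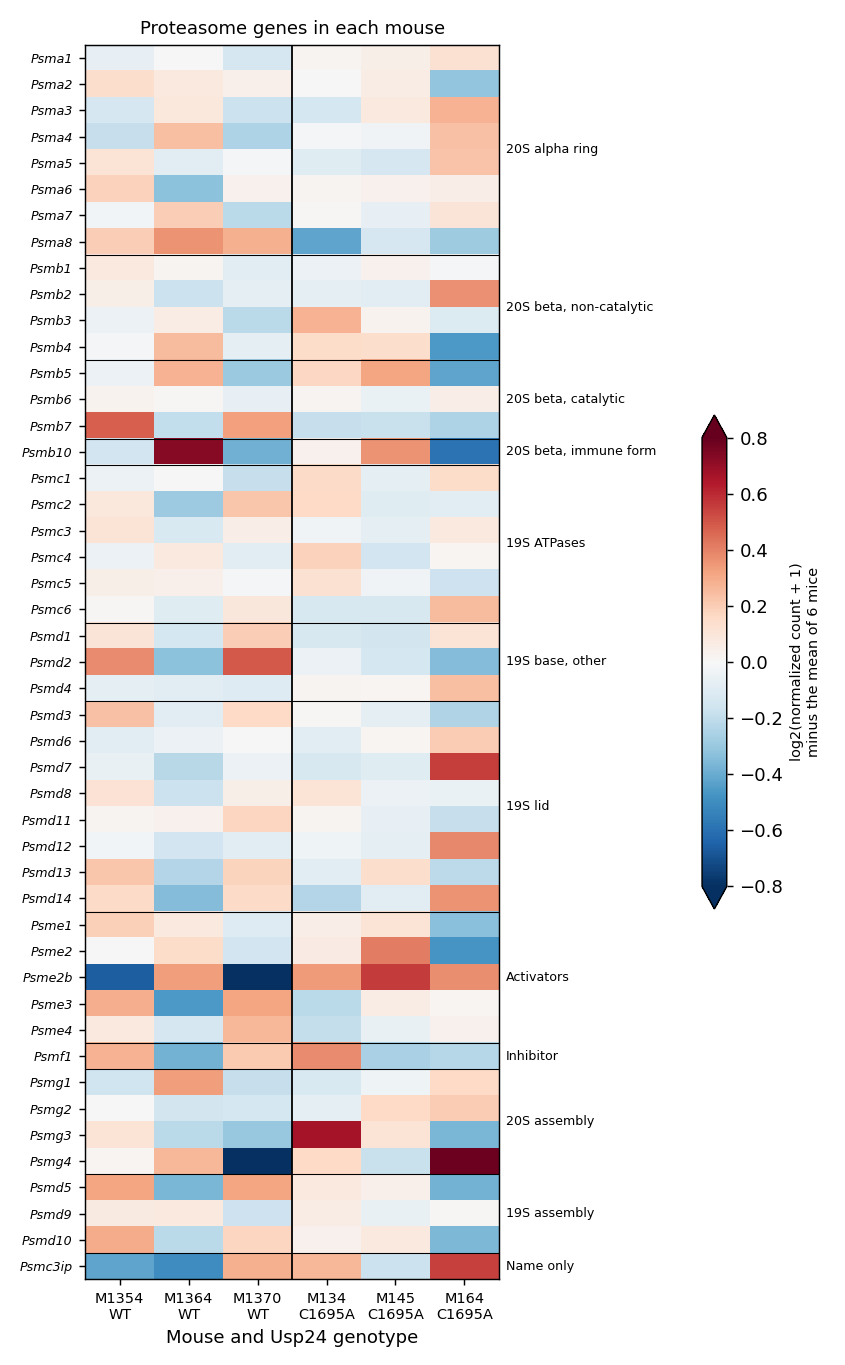
Log2(normalized count + 1) of each of the 47 genes (rows, by role) in each mouse (columns), as the difference from the mean of the 6 mice; red is above and blue below that mean, and values beyond 0.8 take the end colors. Colors vary within both genotypes. Mouse M164 holds 14 of the highest and 14 of the lowest values, and mice M1364 and M1370 hold 13 of the lowest each.

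The share of all reads on these genes overlapped between the genotypes, and their share of the reads outside the mitochondrial transcripts did not. The 47 genes made up 0.353, 0.332 and 0.324% of the reads in WT mice and 0.352, 0.354 and 0.324% in mutant mice. Of the reads outside the mitochondrial transcripts they made up 0.359, 0.343 and 0.330% in WT mice and 0.362, 0.366 and 0.392% in mutant mice. On the latter scale every mutant mouse was above every WT mouse, though mice M134 and M145 only narrowly, and the highest value was that of mouse M164, with its high mitochondrial share. This is a description of the list without a test. Without mitochondrial transcripts in the library total the log2 fold change was above 0 in 35 of 47 members and their median was 0.11. The median over all genes then moved by 0.11 as well, to 0.092.
The summed normalized counts of the 15 alpha and constitutive beta genes of the core were 15207, 15816 and 14128 in WT mice and 15112, 15397 and 16007 in mutant mice. Those of the 17 subunits of the cap were 22156, 19587 and 22330 in WT mice and 21176, 20157 and 22923 in mutant mice. The ratio of core to cap was 0.686, 0.807 and 0.633 in WT mice and 0.714, 0.764 and 0.698 in mutant mice, so that the WT mice held both the lowest and the highest value. These sums weight abundant genes more and are descriptions without a test.

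Levels of the genes can be set side by side only per length. Divided by the length of the principal transcript in GENCODE M21, the mean over the 6 mice ranged from 5.96 ± 1.44 normalized counts per kb (SD over mice) for the testis gene Psma8 to 1889 ± 267 for Psma4. The annotation is of another build (GRCm38) than the mm39 named for the files, and a gene whose main transcript in the tumor is shorter would be placed too low. Of the catalytic subunits, Psmb6 was at 657 ± 21.1, Psmb7 at 234 ± 54.9 and Psmb5 at 223 ± 46.1 normalized counts per kb. Psmb5 and Psmb7 did not differ beyond their spread, and both lay below Psmb6 and the structural beta genes, which ranged from 661 for Psmb1 to 774 for Psmb3. The immune form Psmb10 was lower still, at 93.5 ± 33.1. In the cap Psmc1 was the highest, at 1600, and the lid gene Psmd3 the lowest, at 180 ± 21.9. Of the activators Psme1 led with 1524 ± 188, ahead of Psme2 at 930.1 ± 186, Psme3 at 384 ± 75.9, Psme2b at 351 ± 130.1 and Psme4 at 281 ± 32.8.

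**Figure D5:**
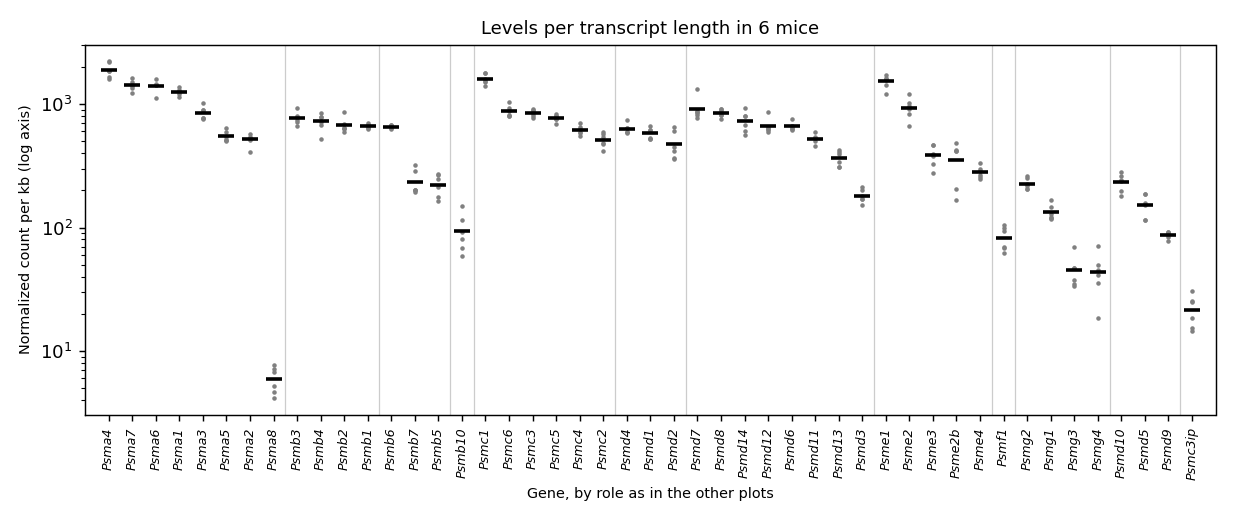
Normalized counts per kb of transcript (y axis, log scale) of the 47 genes, ordered by role and level, with a point for each of the 6 mice and a bar for their mean. Psma8, at 5.96, lies far below the other alpha genes, and Psmb5 and Psmb7 lie below the other constitutive beta genes.

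Other genes of the pathway were taken from a list of 32, of which 30 were in the table and tested. They are subunits and enzymes bound to the cap, assembly and import factors, the immune subunits, regulators of proteasome genes, ubiquitin shuttles, the Vcp segregase and the ubiquitin genes. By limma-trend 0 of 30 passed the threshold and 2 had an unadjusted p under 0.05 (5.54% of all genes). The log2 fold change was above 0 in 8 of 30 (26.7%, against 48.3% of all genes), the median being -0.11. With scaling that leaves out mitochondrial transcripts 15 of 30 were above 0, where 60.2% of all genes were. Quantile normalization also gave 15 of 30, where 46.0% of all genes were above 0. Both edgeR and DESeq2 called 0 of them and gave the same 2 genes, Ddi2 and Ubr4, an unadjusted p under 0.05. The groups did not overlap in 4 of 30 (11.1% of all genes), lower in the mutant mice for Adrm1, Ddi2 and Ubr4 and higher for Uchl5.
Ddi2, the protease that cuts Nfe2l1 into its active form, was at 1579, 1573 and 1964 normalized counts in WT mice and at 1256, 1239 and 873.1 in mutant mice. Every mutant mouse was below every WT mouse, and the log2 fold change was -0.61 (SE 0.20, 95% interval -1.08 to -0.15), with an unadjusted limma p of 0.016 and an adjusted p of 0.738. Nfe2l1, the transcription factor that raises proteasome genes when proteasome activity falls short, was at 2893, 2268 and 3041 in WT mice and at 2312, 2162 and 3190 in mutant mice (log2 fold change -0.11, SE 0.21). Its groups overlapped fully. Nfe2l2, the oxidative stress factor of the same family, was at 9425, 7535 and 9497 in WT mice and at 6187, 7832 and 4235 in mutant mice, and was chosen after its values were seen. Mice M134 and M164 were below all WT mice and mouse M145 was within their range. The log2 fold change was -0.57 (SE 0.26, 95% interval -1.17 to 0.022), with an unadjusted limma p of 0.057 and an adjusted p of 0.738, and it was -0.33 without mouse M164. Ubr4, a very large ubiquitin ligase that binds the proteasome, was at 1743, 1710 and 1907 in WT mice and at 1384, 1382 and 936.5 in mutant mice (log2 fold change -0.56, SE 0.20), with an unadjusted limma p of 0.023 and an adjusted p of 0.738. For both Ddi2 and Ubr4 the lowest value was that of mouse M164, and mice M134 and M145 were also below all WT mice.

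Among the proteins bound to the cap, Adrm1, a ubiquitin receptor, was at 397.8, 359.8 and 364.7 normalized counts in WT mice and at 340.6, 292.8 and 285.1 in mutant mice (log2 fold change -0.29, SE 0.19). Uchl5, the deubiquitinase that docks on Adrm1, was at 456.0, 532.6 and 520.8 in WT mice and at 539.3, 611.4 and 807.8 in mutant mice (log2 fold change 0.36, SE 0.20). The partners thus lay on opposite sides of 0, with limma adjusted p of 0.738 for either. Usp14, another deubiquitinase of the cap, was at 1368, 1064 and 1484 in WT mice and at 1010, 1135 and 1047 in mutant mice (log2 fold change -0.28, SE 0.18). Pomp, the maturation factor of the core, was at 1104, 1199 and 977.7 in WT mice and at 1133, 1201 and 924.6 in mutant mice (log2 fold change -0.014, SE 0.18).

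The core of the antioxidant response element, the sequence that Nfe2l1 and Nfe2l2 are known to bind, was searched in the promoters (250 bases before to 50 after the start, RefSeq, GRCm38.p6) as TGACNNNGC on both strands. Promoters of 39 of the 47 genes were matched, 42 windows in all, and 6 windows held the motif (14.3%), against 12.4% of all 32851 promoters. The share was thus close to that of promoters at large, and a match is no evidence of binding. The genes were Psmb5, Psmb6, Psmc6, Psmd9, Psmd12 and Psme4. In Psmb5, Psmb6 and Psmd9 the motif lay wholly within the 50 bases before the start, and these windows are shown, 60 bases each, since they include those of the catalytic subunits Psmb5 and Psmb6, with the motif in capitals:
Psmb5: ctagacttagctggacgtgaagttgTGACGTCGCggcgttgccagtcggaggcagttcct
Psmb6: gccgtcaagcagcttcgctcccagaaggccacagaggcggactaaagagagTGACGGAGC
Psmd9: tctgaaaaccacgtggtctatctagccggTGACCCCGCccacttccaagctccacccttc
They lie at chr14:54618008-54618067 (minus strand), chr11:70525297-70525356 (plus strand) and chr5:123228130-123228189 (plus strand). The CCAAT box, searched on both strands as CCAAT, was in 13 of the 42 windows (31.0%), against 37.4% of all promoters.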

How the data were processed

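Gene expression was measured by RNA sequencing (3 μg total RNA, 150-bp paired reads) in 6 mice, 3 per genotype. The authors deposited a single table of signal values, which are gene read counts over 1 size factor for each library. HISAT2 2.1.0 and mm39 are named in the notes of the submitters, whereas the counter and the annotation are not given in the sources used here. Values divided by the step of their library gave whole numbers (tolerance 1e-06), and these reads were used for depth and for count tests. For mouse M145 the step is so near 1 that a stricter check did not accept its reads as recovered, so depth and the edgeR and DESeq2 results rest on the residuals for this library. No gene of the table had fewer than 2 libraries with 5 reads or more.

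The main test was limma-trend 3.58.1 (R 4.3.3) on log2(value + 1) without covariates, over the 16640 genes that reached 10 in 3 or more libraries, with Benjamini-Hochberg adjustment over all of them. Fold changes of low genes are drawn toward 0. The paper's methods name DESeq with an adjusted P under 0.05, and edgeR 4.0.16 and DESeq2 1.42.0 on the recovered reads were alternatives, beside other pseudocounts, filters, scalings, array weights, a Y-linked covariate and leaving out each mouse. Ratios were compared by exact permutation. The fit was also run on simulated counts with the means, library sizes and dispersion trend of these data. It called 17 of 100 genes with a 2-fold change, 88 of 100 with a 4-fold change and 4 of 16440 unchanged genes. Most simulated 2-fold changes were thus missed at the threshold. The changed genes were drawn only from those with a mean over 100 normalized counts. Each gene took the dispersion of the trend at its level, and no library was made to stand out. The simulated shares are therefore not estimates for the proteasome genes themselves. No source says more of the replicates than the mouse numbers. Transcript lengths, coding sequences and shared windows came from GENCODE M21 and promoters from RefSeq (GRCm38.p6), and figures were drawn with matplotlib 3.10.9.

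The members, lists and alternatives were chosen with earlier results of these data known. Values in every mouse are given for the 5 members with the lowest p in each direction, the member with the lowest p of each role, the catalytic subunits, Psmd4, Psmd14, Psme1 to Psme4, Psmf1 and Psmc3ip. Of the other pathway genes they are given for up to 2 with the lowest p in each direction and for Psmb8, Psmb9, Nfe2l1, Usp14, Adrm1 and Pomp. Marker sums not given elsewhere were 26352 to 43478 for alveolar type 1, 20940 to 87608 for club cells, with the highest in mouse M164, and 2021 to 2627 for the cell cycle. Skeletal muscle markers were not analysed here.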

Additional observations from a re-analysis of the deposited data

How the results depend on the processing

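The number of proteasome genes past the threshold was 0 under each of 19 alternatives, as was that of the other pathway genes, and the lowest adjusted p of a member was 0.0796 (Psme2b, limma with array weights). Over all genes, limma called 40 without mouse M134, 5 without M1354 and 0 as reported, and DESeq2 called 37. Of 698 values recomputed, 639 were scored as the same. That meant the same direction and side of the threshold, a median moved by less than the spread, or a count within 1.5 times that reported. Counts of 20 to 35 positive members, against 25 as reported, were thus scored as the same. None of these genes passed in any setting, so the side of the threshold adds nothing to the score. Among 34 single genes, 22 never changed sign. The cause was not tested for any change. No paired analysis was run, because no source gives litters or batches by which mice of the genotypes could be paired. The unadjusted limma p of Psme2b was not under 0.05 without mouse M1354, M1370 or M145, or with the Y-linked covariate.

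The median log2 fold change of the members was -0.053 with the Y-linked covariate, 0.083 with quantile normalization, 0.11 with scaling that leaves out mitochondrial transcripts and 0.077 with upper quartile scaling. For Psme2 the log2 fold change was 0.062 by DESeq2, 0.036 with TMM, 0.33 with array weights, 0.075 by edgeR, 0.083 with quantile normalization, 0.11 without mitochondrial transcripts and 0.072 with the upper quartile. For Pomp it was 0.013, 0.023, 0.14, 0.027, 0.084, 0.097 and 0.060 in the same order. With the Y-linked covariate it was 0.085 for Psmb10, -0.023 for Psmb6 and -0.14 for Psmd14, and with array weights 0.41, -0.026 and -0.20. Quantile normalization gave -0.036 for Psmb5, 0.018 for Psme1, 0.0055 for Psme3, 0.017 for Nfe2l1 and 0.0023 for Usp24. Scaling without mitochondrial transcripts gave 0.017 for Psme3, 0.036 for Psmf1, 0.0023 for Nfe2l1 and 0.0047 for Usp24.

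Leaving out each mouse in turn, the log2 fold change ranged from -0.35 to 0.20 for Psmb10, -0.11 to 0.26 for Psmb5, -0.014 to 0.044 for Psmb6, -0.15 to 0.15 for Psmd14, -0.0048 to 0.34 for Psmd7, -0.20 to 0.025 for Psme1, -0.20 to 0.23 for Psme2, -0.35 to 0.039 for Psme3, -0.28 to 0.047 for Psmf1, -0.28 to 0.0017 for Nfe2l1 and -0.092 to 0.098 for Pomp. Genes that kept their sign but moved by over 1.5 times ranged from -0.24 to -0.057 for Psma2, 0.024 to 0.22 for Psmb3, -0.61 to -0.27 for Psmb7, 0.10 to 0.23 for Psmc1, 0.26 to 0.67 for Psmc3ip, -0.61 to -0.21 for Psmd2, 0.11 to 0.22 for Psmd4, -0.41 to -0.033 for Psmd5, -0.24 to -0.045 for Psme4, 0.11 to 0.77 for Psmg4, 0.00093 to 0.33 for Psmb8, 0.19 to 0.73 for Psmb9, -0.78 to -0.33 for Nfe2l2, -0.65 to -0.37 for Ubr4, 0.19 to 0.48 for Uchl5, -0.42 to -0.18 for Usp14 and -0.25 to -0.0071 for Usp24. The value nearest 0 was that without mouse M164 for Psma2, Psmc3ip, Psmd4, Psmd5, Nfe2l2, Ubr4 and Uchl5, without M1370 for Psmc1, Psmd2, Psme4, Psmg4 and Usp14, without M145 for Psmb8 and Psmb9, without M134 for Psmb3 and Usp24, and without M1354 for Psmb7. The limit of 1.5 times was taken against the value with all mice. By it Psme2b moved less, with a log2 fold change from 0.59 without mouse M1370 to 1.23 without mouse M1364. The difference in log2 ratio ranged from -0.0087 to 0.81 for Psmb10 to Psmb7 and from -0.23 to 0.24 for Psme1 to Psme3.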
